A study of Mus musculus with 9 samples.

Results

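The genes described here are 35 mouse genes of DNA replication and S phase, taken by name from a list of E2F-driven replication and deoxynucleotide synthesis genes. No threshold on a measured value entered the rule, but the list was chosen with earlier results of these data known. All 35 were present in the deposited table of 24421 genes, and all 35 were among the 12575 genes that passed the filter on low counts. Their raw counts ranged from 104 to 10194 per library. RNA-seq was performed on 4T1 cells, an epithelial mammary carcinoma line of the mouse, in 3 conditions with 3 libraries each. In the first condition, cells grew as 3D spheroids on soft agar without added palmitate, a saturated fatty acid, and received the albumin and ethanol carrier of the fatty acid stocks. The second was the same 3D culture with 75 µM palmitate added, and the third was 2D culture with 75 µM palmitate added. All cells were kept for 5 days in medium with serum, which itself contains fatty acids. The design gives 2 comparisons, 3D against 2D culture with palmitate in both, and palmitate against none within 3D culture. Both use the same 3 libraries of 3D cultures with palmitate. A 2D culture without added palmitate was not analysed here. All libraries are of 1 cell line. The study's general statement on statistics speaks of biological replicates, but it does not name these libraries, and whether the 3 of a condition came from separate cultures is not given in the sources used here, so the p-values measure the spread between these libraries, which may be technical.

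Before a cell copies its DNA, the origin recognition complex with CDC6 and CDT1 loads the MCM2-7 helicase onto origins in G1. At the start of S phase, kinases together with CDC45, MCM10 and the 4 GINS subunits turn the loaded helicase into an active one, and polymerases, the PCNA clamp and its RFC loader, flap endonuclease and DNA ligase then build the new strands. Ribonucleotide reductase, thymidylate synthase and thymidine kinase supply the deoxynucleotides. Most of these genes are switched on together at the G1/S boundary by E2F transcription factors, once cyclin-dependent kinases have released E2F from the retinoblastoma protein, so that their mRNA is widely used as a sign of proliferating cells. In RNA from whole cultures, a smaller share of cells in S phase and less of an mRNA per cell cannot be told apart.

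Total counts ranged from 15293752 to 20785643 in 3D cultures without palmitate, from 6595514 to 27047217 in 3D cultures with palmitate and from 12235351 to 31177756 in 2D cultures. The smallest library was replicate 3 of the 3D cultures with palmitate. Levels are given as CPM, reads of a gene scaled to library size, after scaling by edgeR's TMM method. The 35 genes had a median level of 82.2 CPM, against 34.0 CPM over all genes tested, and they were measured with a median standard error of 0.07 in log2 fold change. All 8 epithelial markers, among them Epcam, Cdh1 and Krt8, were expressed, with levels between 38.5 and 1561 CPM. Of 14 markers of leukocytes, endothelium, fibroblasts and adipocytes, 3 had no count in any library and 10 had at most 11 counts in any library, which is at most 0.613 CPM. The remaining one, Pdgfra, had 98.8 ± 10.1 CPM (SD, n = 3) in 3D and 30.4 ± 0.823 CPM (SD, n = 3) in 2D cultures with palmitate. The summed level of the epithelial markers was 5083 to 5344 CPM in the 6 3D libraries and 3998 to 4313 CPM in the 2D libraries, and that of the other markers was 91.4 to 111 CPM and 30.4 to 31.9 CPM. Of the 8 epithelial markers, only Krt7 went against the sum. It had 607 ± 50.9 CPM (SD, n = 3) in 3D and 866 ± 50.4 CPM (SD, n = 3) in 2D cultures with palmitate. The part of these differences in the results below was not tested.

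Because the list was named for E2F, the promoters of its genes were searched for the letters that E2F factors are known to bind, and the counts describe the list and do not test it. RefSeq promoters of GRCm38.p6, from 250 bases before to 50 bases after the start of transcription, were given for 28 of the 35 genes. The search covered both strands and 4 forms of the letters, TTTCCCGC, TTTCGCGC, TTTGCCGC and TTTGGCGC. At least 1 form was present in 13 of the 28 genes, or 46.4%, against 2.6% of all 27025 genes with a promoter and 4.75% of the 9536 tested genes with one. The letters were found in 4 of 5 MCM2-7 genes and in 3 of 4 genes of helicase loading, and in 0 of 4 deoxynucleotide genes. The letters TTTGAA, the core of the cell cycle homology region known from late cell cycle genes, were in 14.3% of the 28 genes and in 13.9% of tested genes and in 68.8% of 16 genes of G2 and mitosis with a promoter, where the E2F letters were in 6.25%. CCAAT was in 60.7% of the 28 genes and 43.1% of tested genes. A match is a description of these letters in these windows and not evidence of binding. Stretches of 50 bases around the letters, with every E2F match in capitals, are shown for a pair of helicase subunits, a helicase loader and a polymerase, to let the letters be seen in their surroundings. These 4 stretches overlap no annotated exon. The sequences come from RefSeq and GRCm38.p6, are written 5′ to 3′ on the strand of the gene, and are placed at chr8:75109339-75109388 (plus strand), chr1:128359724-128359773 (minus strand), chr11:98907992-98908041 (plus strand) and chrX:93632265-93632314 (minus strand).
Mcm5: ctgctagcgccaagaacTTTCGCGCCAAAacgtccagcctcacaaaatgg
Mcm6: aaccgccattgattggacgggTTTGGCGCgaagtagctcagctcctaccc
Cdc6: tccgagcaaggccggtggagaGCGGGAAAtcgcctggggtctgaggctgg
Pola1: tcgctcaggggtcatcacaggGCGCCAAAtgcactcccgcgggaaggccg
In the stretch of Mcm5, 2 matches on opposite strands overlap, so that the capitals run on over both. In those of Cdc6 and Pola1, the match reads on the opposite strand.

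The first comparison asks how 3D spheroids differ from 2D cultures when both receive palmitate. Of the 35 genes, 17 were lower in 3D, 3 were higher and 15 did not pass the test at an adjusted p-value under 0.05 (quasi-likelihood test of edgeR, adjusted by Benjamini and Hochberg's method over all 12575 genes). The largest decreases were in Gins1, Cdt1, Rfc4, Pold1 and Orc1, and the genes that rose were the cyclin E genes Ccne1 and Ccne2 and the GINS subunit Gins2. This comparison changed much of the transcriptome, with 68.3% of all tested genes passing, 34.5% higher and 33.9% lower. Of the 35 genes, 57.1% passed, with 8.57% higher and 48.6% lower. The log2 fold changes of the 17 lower genes were small and lay between -0.87 and -0.20 with a median of -0.33. The median over the 35 genes was -0.12, against 0.01 over all tested genes. Below 0 lay 23 of the 35 values, and 6229 of those of all 12575 tested genes. For 19 genes all 3 libraries of the 3D cultures lay below all 3 of the 2D cultures, or 54.3% against 34.8% of all tested genes, and for 2 genes, Ccne1 and Ccne2, they lay above, or 5.71% against 34.6%. The 17 lower genes were all among the 19, and the other two were Mcm7 and Cdc45. Without replicate 3 of the 3D cultures with palmitate, the smallest library, 17 genes were again called lower and 3 higher, against 69.3% called of all genes then tested, 34.3% lower and 35.1% higher.

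**Figure D1:**
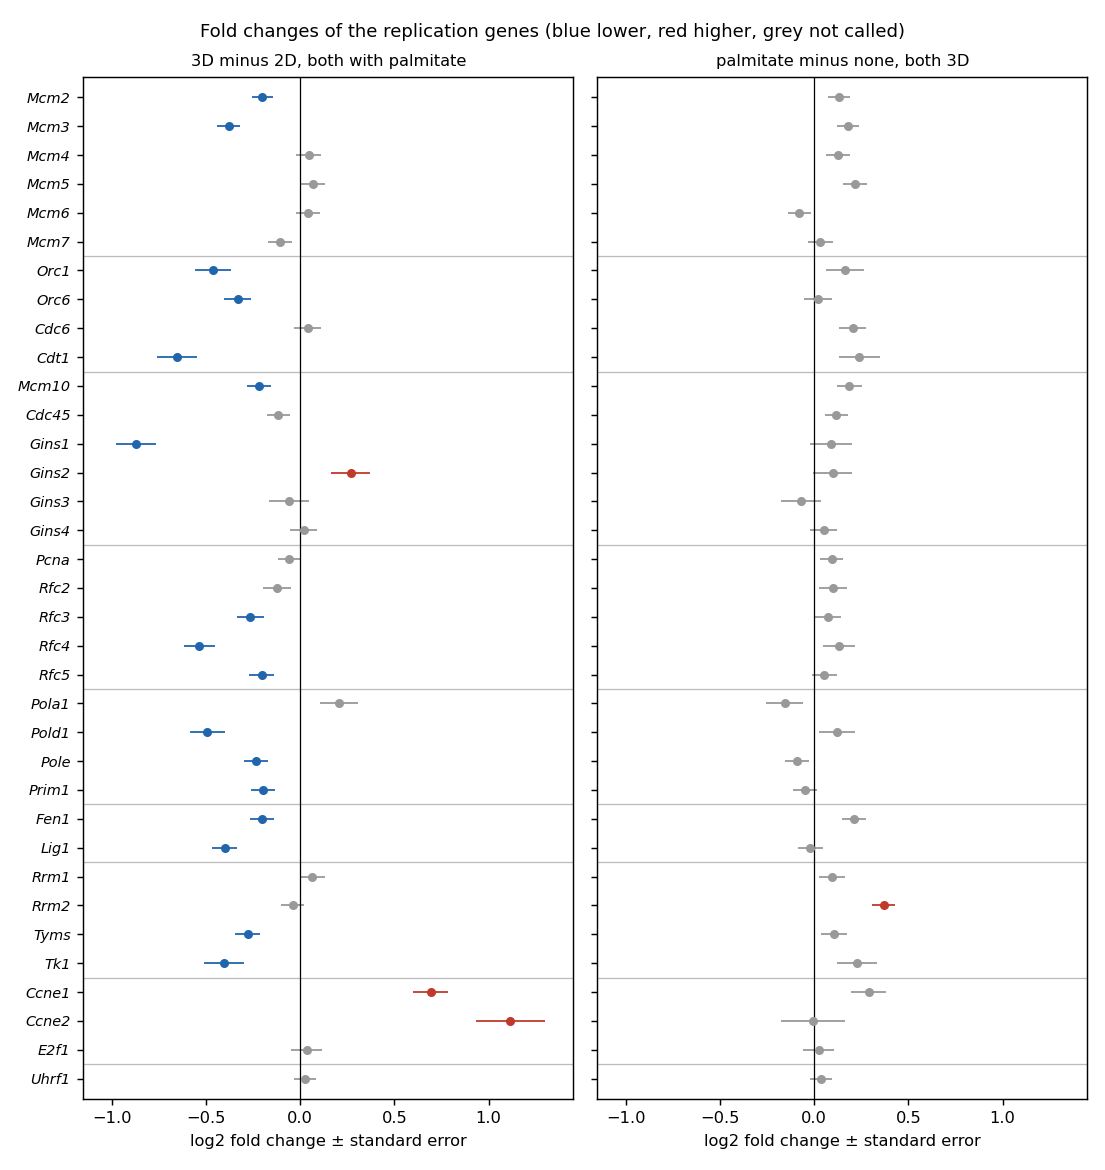
Log2 fold change of each of the 35 genes (points) with its standard error (bars), 3D minus 2D with palmitate in both (left) and palmitate minus none in 3D (right), with grey lines between the functional groups. On the left, 17 genes are called lower (blue) and 3 higher (red), and on the right only Rrm2 is called.

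Among the 6 subunits of the MCM2-7 helicase, which unwinds the double strand ahead of the fork, Mcm3 and Mcm2 were lower in 3D and the other 4 did not pass. The level of Mcm3 was 251, 239.7 and 236 CPM in the 3 libraries of 3D cultures with palmitate and 314, 313 and 318 CPM in those of 2D cultures, a log2 fold change of -0.38 (SE 0.0605, edgeR adjusted p = 6.07e-05). That of Mcm2 was 199, 194 and 190.4 CPM in 3D and 224, 223 and 223 CPM in 2D, with a change of -0.20 (SE 0.0570, edgeR adjusted p = 0.00609). In both genes the groups did not overlap. Mcm7 also had all 3D libraries below all 2D libraries, with 217, 195 and 202 against 217, 224 and 222 CPM, but its change of -0.11 (SE 0.0645, edgeR adjusted p = 0.150) did not pass. With 1 library left out, the edgeR adjusted p of Mcm7 ran from 0.0484 to 0.423. The changes of Mcm4, Mcm5 and Mcm6 were 0.04, 0.07 and 0.04, with 95% intervals of -0.09 to 0.18, -0.07 to 0.21 and -0.09 to 0.17. The interval of Mcm3 was -0.51 to -0.25 and did not reach those of these 3 genes, although differences between genes were not tested. Per kilobase of exon, the level in 3D cultures with palmitate ran from 27.9 CPM in Mcm2 to 75.0 CPM in Mcm4, and in 2D cultures from 32.1 CPM in Mcm2 to 84.0 CPM in Mcm3. The length used is that of all annotated exons of a gene joined, which can exceed that of the expressed mRNA. An order of genes by level per kilobase can therefore come from the annotation.

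Of the 4 genes that load the helicase, 3 were lower in 3D. CDT1 brings MCM2-7 to the origin and is restrained by geminin after G1. Its gene, at chr8:122568015-122573554 of GRCm38, had 127, 107 and 82.8 CPM in the libraries of 3D cultures with palmitate and 165, 165 and 176 CPM in 2D, a log2 fold change of -0.65 (SE 0.108, edgeR adjusted p = 8.47e-05). The 3D libraries of Cdt1 were spread widely, with replicate 3 the lowest, yet all lay below the 2D libraries. Orc1, the largest subunit of the origin recognition complex, had 31.5, 31.4 and 27.9 CPM in 3D and 39.8, 45.3 and 40.8 CPM in 2D, a change of -0.46 (SE 0.0974, edgeR adjusted p = 0.000681). Orc6, another subunit of that complex, had 56.3, 61.5 and 68.8 CPM in 3D and 77.6, 76.0 and 78.7 CPM in 2D, a change of -0.33 (SE 0.0724, edgeR adjusted p = 0.000913). The groups did not overlap in either gene. Cdc6, the loading ATPase that works with ORC and CDT1, had 58.4, 61.8 and 62.5 CPM in 3D and 58.0, 59.3 and 59.5 CPM in 2D, with overlapping groups. Its change of 0.04 (SE 0.0704, edgeR adjusted p = 0.626) did not pass and its 95% interval was -0.11 to 0.19.

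The genes that activate the helicase were split. Gins1, at chr2:150905400-150931280, had the largest decrease of the 35 genes. Its level was 16.4, 14.3 and 16.4 CPM in 3D cultures with palmitate and 28.1, 25.6 and 32.4 CPM in 2D cultures, which is 1.83-fold higher in 2D, with a log2 fold change of -0.87 (SE 0.106, edgeR adjusted p = 4.61e-06). Mcm10, a scaffold of the active helicase, had 78.7, 77.6 and 88.1 CPM in 3D and 94.0, 95.1 and 93.2 CPM in 2D, a change of -0.22 (SE 0.0631, edgeR adjusted p = 0.00696). In both, the highest 3D library lay below the lowest 2D library. Gins2 was higher in 3D, with 34.5, 28.6 and 24.7 CPM against 26.6, 23.4 and 25.3 CPM and a change of 0.27 (SE 0.104, edgeR adjusted p = 0.0329), but its groups overlapped. Gins2 no longer passed when replicate 1 of the 3D cultures with palmitate or replicate 2 or 3 of the 2D cultures was left out, and its adjusted p then reached up to 0.307 in edgeR. Its exons share 2758 bases with the gene Gse1 on the opposite strand. Gins3 and Gins4 did not pass, with changes of -0.06 (95% interval -0.28 to 0.17) and 0.02 (-0.13 to 0.17). GINS acts as a complex of 4 proteins, 1 from each of these genes. Per kilobase of annotated exon, the level of Gins1 in 2D was 18.9 CPM, of Gins2 6.13, of Gins3 10.9 and of Gins4 35.4. These values depend on the annotated length and do not give the ratio of the subunit mRNAs. Cdc45, the helicase cofactor that joins MCM2-7 and GINS, had 68.3, 66.3 and 68.3 CPM in 3D and 72.8, 71.3 and 75.9 CPM in 2D. These groups did not overlap, but the change of -0.12 (SE 0.0600, edgeR adjusted p = 0.0988) did not pass.

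**Figure D2:**
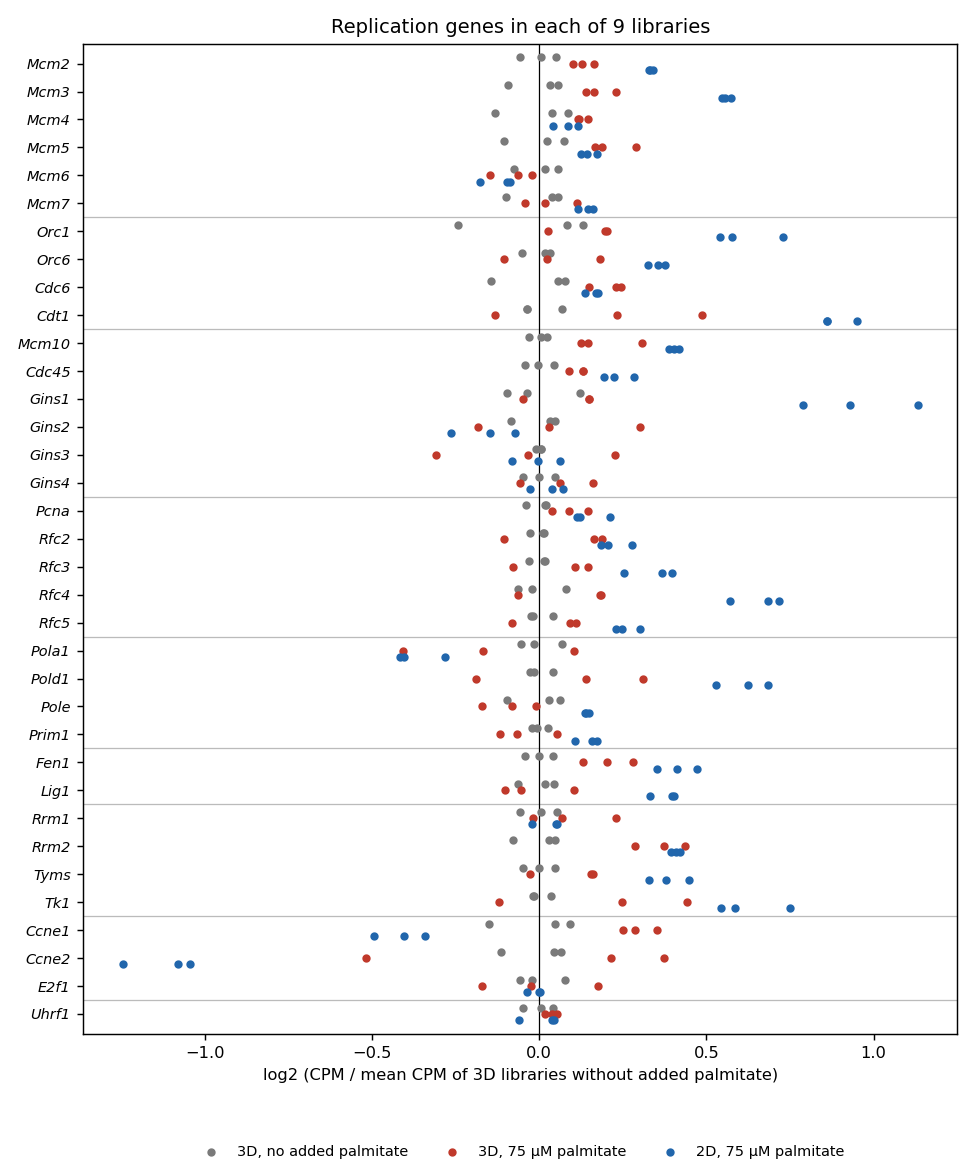
Each point is 1 library, placed by the log2 ratio of its CPM to the mean CPM of the 3 libraries of 3D culture without added palmitate (x axis), for each of the 35 genes (rows, grouped by function). Blue 2D libraries lie right of all red and grey 3D libraries in Mcm3, Cdt1, Gins1, Rfc4 and Pold1 among others, and left of them in Ccne1 and Ccne2.

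Of the sliding clamp and its loader, 3 of 5 genes were lower in 3D, all from the loader. Rfc4 had 27.8, 27.7 and 23.4 CPM in 3D cultures with palmitate and 36.3, 39.3 and 40.2 CPM in 2D cultures, a log2 fold change of -0.54 (SE 0.0814, edgeR adjusted p = 3.81e-05). Rfc3 had 54.7, 56.1 and 48.1 against 66.9, 60.6 and 65.5 CPM, a change of -0.26 (SE 0.0707, edgeR adjusted p = 0.00401). Rfc5 had 63.0, 63.9 and 55.9 against 72.9, 69.3 and 70.2 CPM, a change of -0.20 (SE 0.0657, edgeR adjusted p = 0.0126). These 3 small subunits form part of the ring that opens PCNA, and in each the 3D libraries lay below the 2D libraries. Rfc2, another subunit of that ring, did not pass with -0.12 (95% interval -0.28 to 0.03). Pcna, the clamp that holds the polymerase on DNA and a common marker of proliferation, had 222, 231 and 215 CPM in 3D and 228, 226 and 242 CPM in 2D. The groups of Pcna overlapped, and its change was -0.06 (SE 0.0593, edgeR adjusted p = 0.408) with a 95% interval of -0.18 to 0.07, so a decrease as large as that of Rfc4 lies outside this interval.

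Of the 4 polymerase and primase genes, Pold1, Pole and Prim1 were lower in 3D. Pold1, the catalytic subunit of the lagging strand polymerase delta, had 90.6, 80.6 and 64.2 CPM in 3D and 106, 113 and 118 CPM in 2D, a log2 fold change of -0.49 (SE 0.0941, edgeR adjusted p = 0.000298). Pole, which encodes the catalytic subunit of the leading strand polymerase epsilon, had 119, 126 and 133 against 148, 148 and 147 CPM, a change of -0.23 (SE 0.0647, edgeR adjusted p = 0.00504). For Prim1, the catalytic primase subunit, the values were 60.9, 63.0 and 68.5 and 73.6, 71.1 and 74.4 CPM, a change of -0.20 (SE 0.0633, edgeR adjusted p = 0.0129). None of these 3 genes had overlapping groups. Pola1, the polymerase that extends the RNA primer, had 106, 125 and 151 CPM in 3D and 105, 116 and 106 CPM in 2D. Its groups overlapped, and its change of 0.21 (SE 0.0996, edgeR adjusted p = 0.0779) did not pass. With 1 library left out, the change of Pola1 ran from 0.07 to 0.33 and its edgeR adjusted p from 0.00152 to 0.382. Both genes of Okazaki fragment processing were lower in 3D. Lig1, the ligase that seals the fragments, had 141, 146 and 163 CPM in 3D and 191, 199.8 and 200.4 CPM in 2D, a change of -0.40 (SE 0.0665, edgeR adjusted p = 9.05e-05). Fen1, the nuclease that removes the flaps between fragments, had 98.6, 89.0 and 93.6 against 104, 108 and 113 CPM, a change of -0.20 (SE 0.0634, edgeR adjusted p = 0.0104). Fen1 no longer passed when replicate 2 of the 3D cultures with palmitate was left out (edgeR adjusted p = 0.0673), and its exons overlap 1909 bases of Gm10143 on the opposite strand.

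Of the 4 deoxynucleotide genes, both genes of thymidine nucleotides were lower in 3D and both subunits of ribonucleotide reductase did not pass. Tk1, the S phase thymidine kinase of the salvage pathway, had 120.5, 105 and 81.6 CPM in 3D cultures with palmitate and 129, 133 and 149 CPM in 2D, a log2 fold change of -0.40 (SE 0.104, edgeR adjusted p = 0.00327). Tyms, thymidylate synthase, had 76.5, 76.7 and 67.4 against 89.3, 86.2 and 93.8 CPM, a change of -0.28 (SE 0.0676, edgeR adjusted p = 0.00208). In both genes the 3D libraries lay below the 2D libraries. Rrm1, the large subunit of ribonucleotide reductase, had 291, 308 and 346 CPM in 3D and 305, 306 and 289.9 CPM in 2D, a change of 0.07 (SE 0.0688, edgeR adjusted p = 0.411). Rrm2, the small subunit that is limiting in S phase, had 243, 233 and 219 and 239, 241 and 237 CPM, a change of -0.04 (SE 0.0617, edgeR adjusted p = 0.583), with a 95% interval of -0.17 to 0.09. The libraries of both conditions overlapped in these subunits. After correction of every library for GC content and exon length, an alternative added once the data had been seen, Rrm1 turned to -0.25 with an edgeR adjusted p of 4.68e-05.

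Of the 3 G1/S regulators, both cyclin E genes were higher in 3D and E2f1 did not pass. Ccne2, at chr4:11191351-11204779, encodes cyclin E2, which with CDK2 drives entry into S phase. It had 12.4, 20.6 and 23.0 CPM in 3D cultures with palmitate and 8.60, 8.39 and 7.49 CPM in 2D, a 2.17-fold higher level in 3D with a log2 fold change of 1.12 (SE 0.182, edgeR adjusted p = 7.3e-05). Ccne1, at chr7:38097984-38107534, encodes cyclin E1 and had 18.9, 19.4 and 20.4 against 11.3, 12.0 and 12.6 CPM, a change of 0.69 (SE 0.0944, edgeR adjusted p = 1.35e-05). All 3D libraries lay above all 2D libraries in both, although replicate 1 of the 3D cultures with palmitate was low in Ccne2, and the exons of Ccne2 share 609 bases with Ints8 on the opposite strand. E2f1, the activator of this programme, did not pass, with 53.5, 46.6 and 42.1 CPM in 3D and 47.5, 47.4 and 46.2 CPM in 2D, a change of 0.03 and a 95% interval of -0.14 to 0.21. Uhrf1, which brings the maintenance methyltransferase to newly copied DNA, did not pass either, with 235, 229 and 232 against 233, 234 and 217 CPM, a change of 0.03 and an interval of -0.10 to 0.15. Per kilobase of annotated exon, with the same limit on length, Ccne2 and Ccne1 were the lowest of the 35 genes in 2D cultures, at 2.33 and 4.50 CPM, and Pcna was the highest at 96.6 CPM.

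**Figure D3:**
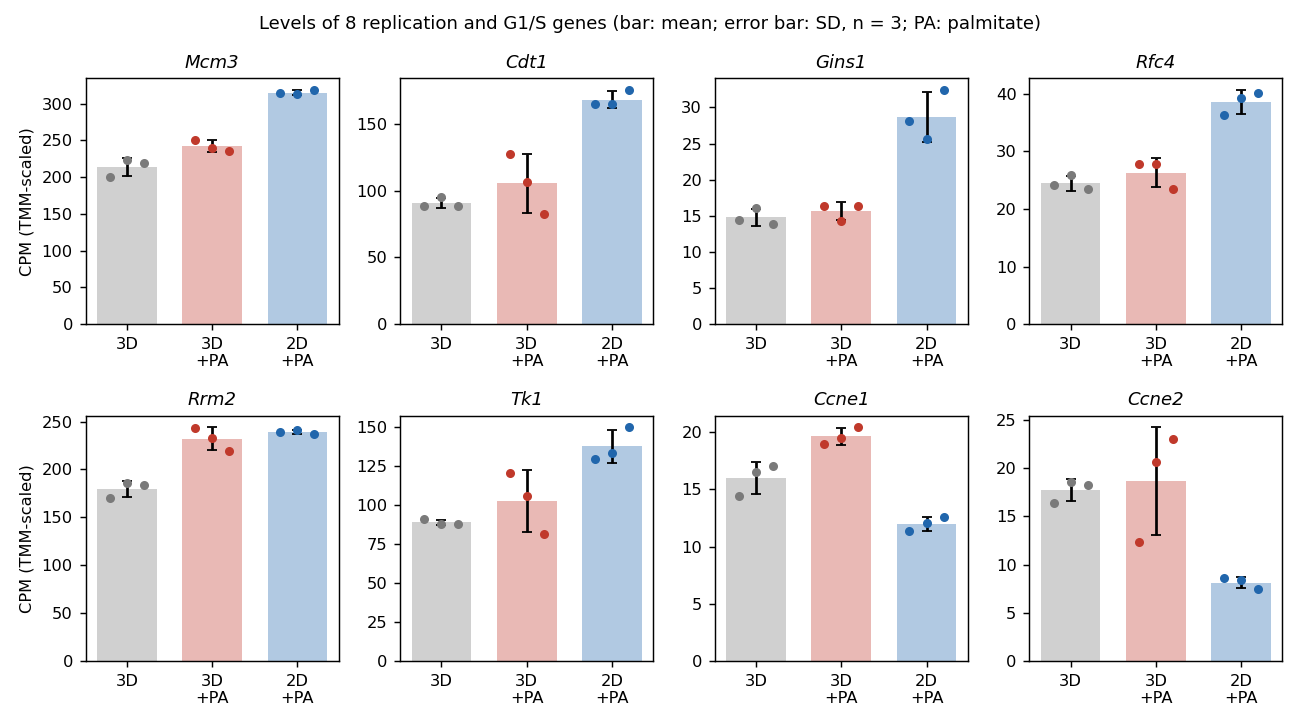
Levels in CPM of 8 of the genes in 3D culture without palmitate (grey), 3D with palmitate (red) and 2D with palmitate (blue), as mean (bar), SD (error bar, n = 3) and each library (points). Mcm3, Cdt1, Gins1, Rfc4 and Tk1 are highest in 2D, Ccne1 and Ccne2 lowest there, and Rrm2 in 3D with palmitate lies at its level in 2D.

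The E2F letters were found in genes that were lower in 3D and in genes that did not pass. Of the 13 genes with the letters in a promoter, 6 were lower, 0 were higher and 7 did not pass, with a median log2 fold change of -0.11. Among the 15 genes with a promoter without them, the numbers were 9, 1 and 5, with a median of -0.20. Of all tested genes, 33.9% were lower and 34.5% higher. The calls of all tested genes were not split by the letters, and the difference between the 13 and the 15 genes was not tested. Of the genes whose sequences are shown above, none of Mcm5, Mcm6, Cdc6 and Pola1 passed the test of 3D against 2D.

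The second comparison asks what added palmitate changes within 3D culture. Of the 35 genes, 1 passed the test, Rrm2, which was higher with palmitate, and the other 34 did not. Of all tested genes, 2.19% passed, 1.38% higher and 0.811% lower. Rrm2, at chr12:24708241-24714146, had 170.2, 186 and 184 CPM in the 3 libraries without palmitate and 243, 233 and 219 CPM in those with it, or 179.8 ± 8.45 CPM (SD, n = 3) and 232 ± 12.0 CPM (SD, n = 3). Every library with palmitate lay above every library without it, a 1.29-fold difference with a log2 fold change of 0.37 (SE 0.0621, edgeR adjusted p = 0.00711) and a 95% interval of 0.24 to 0.50. Rrm2 no longer passed when replicate 1 of the cultures without palmitate was left out (edgeR adjusted p = 0.0505), when replicate 2 of those with palmitate was left out (0.0529), or with the share of counts of the ribosomal precursor Rn45s in the fit (0.0827), while the log2 fold change stayed between 0.33 and 0.41 in every alternative run. Rn45s took 1.77% to 2.77% of the counts of 3D libraries without palmitate and 1.81% to 5.38% of those with it, and its part in the result was not tested.

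In 10 of the 35 genes, or 28.6%, palmitate gave an unadjusted p-value under 0.05, against 17.3% of all tested genes. For 3D against 2D, an unadjusted p-value under 0.05 was found in 57.1% of the 35 genes and in 70.9% of all tested genes. After Rrm2, the smallest p-values for palmitate were led by Mcm5, with 225, 255 and 246 CPM without and 296, 276 and 272 CPM with palmitate and a log2 fold change of 0.22 (SE 0.0640, edgeR adjusted p = 0.0954). Fen1 had 78.8, 83.6 and 81.2 and 98.6, 89.0 and 93.6 CPM and a change of 0.21 (SE 0.0641, edgeR adjusted p = 0.108), and Ccne1 had 14.4, 16.5 and 17.0 and 18.9, 19.4 and 20.4 CPM and a change of 0.29 (SE 0.0929, edgeR adjusted p = 0.121). In these 3 genes no library with palmitate fell into the range of those without, but none passed after adjustment. The remaining ones of the 10 were Mcm3 (0.18), Mcm10 (0.19), Cdc6 (0.21), Mcm2 (0.13), Cdt1 (0.24) and Tk1 (0.23). All 3 libraries with palmitate lay above all 3 without in 11 genes, or 31.4% against 10.4% of all tested genes, and in 0 genes did they lie below, against 8.19%. The median log2 fold change over the 35 genes was 0.10, against 0.01 over all tested genes. Above 0 lay 28 of the 35 values, and 6564 of those of all 12575 tested genes. By role, the median was 0.19 in helicase loading, 0.17 in deoxynucleotide synthesis, 0.13 in MCM2-7 and -0.07 in the polymerases. It was 0.0946 in helicase activation, 0.0928 in the clamp and its loader and 0.095 in Okazaki fragment processing. The G1/S regulators had 0.0247, and Uhrf1 alone had 0.0364.

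These counts depended on replicate 3 of the 3D cultures with palmitate. Without it, 8 of the 35 genes were called, 7 of them higher (Rrm2, Cdt1, Tk1, Mcm5, Pold1, Mcm3 and Fen1) and 1 lower, Pola1 with a log2 fold change of -0.29 (SE 0.0729, edgeR adjusted p = 0.0148). Cdt1 then had a change of 0.37 (SE 0.0718, edgeR adjusted p = 0.00315) and Tk1 one of 0.35 (SE 0.0721, edgeR adjusted p = 0.00452). The number of genes called among all tested rose from 275 to 1901, which is 14.9% of the 12787 genes tested without it, with 8.56% higher and 6.3% lower. With all libraries, Cdt1 had 88.6, 95.3 and 88.6 CPM without and 127, 107 and 82.8 CPM with palmitate, and Tk1 had 90.9, 87.5 and 87.8 and 120.5, 105 and 81.6 CPM. In both genes replicates 1 and 2 with palmitate lay above all libraries without, and replicate 3 lay below them.

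The 3 libraries of 3D cultures with palmitate differed more among themselves than those of the other conditions. The ratio of the highest to the lowest library had a median of 1.14 over the 35 genes, against 1.08 in 3D without palmitate and 1.07 in 2D, and it was above 1.2 in 10 genes, against 1 and 1. It was largest in Ccne2, at 1.85, then in Cdt1, at 1.54, and in Tk1, at 1.48. Replicate 3 was the lowest of the 3 in 16 genes, with a median GC content of the exons of 51.9%, and the highest in 14 genes, with a median GC content of 47.6%. Pola1, with 41.7% GC, had 106, 125 and 151 CPM, and Pold1, with 60.6% GC, had 90.6, 80.6 and 64.2 CPM, so that replicate 3 was the highest of the 3 in one and the lowest in the other. The ranges of GC content overlapped, from 42.3% to 60.6% in the 16 genes and from 37.5% to 53.4% in the 14. Some genes went the other way. Replicate 3 was the lowest in Pcna, with 42.3% GC, and the highest in Lig1, with 53.4% GC. The part of GC content in this spread was not tested. After the same correction for GC content and exon length, 5 genes were called for palmitate, Rrm2, Mcm5, Cdt1, Mcm10 and Rrm1, and 25 for 3D against 2D, of which 21 were lower. Under that correction 7.54% of the 12125 genes with GC content and length were called for palmitate, 4.36% higher and 3.18% lower. For 3D against 2D, 72.6% were called, 41.6% lower and 31.0% higher, and the median log2 fold change was -0.08 over all these genes and -0.20 over the 35.

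The summed level of the 35 genes was 3759 to 4008 CPM in 3D without palmitate, 4155 to 4205 CPM in 3D with palmitate and 4541 to 4571 CPM in 2D with palmitate. The sums of the conditions did not overlap. Replicate 1 of the 3D cultures without palmitate had the lowest sum, and the other two libraries of that condition had 3985 and 4008 CPM. At the level of single genes, all 3 libraries of 2D lay above all 3 of 3D with palmitate, and these above all 3 of 3D without, in 5 genes, Mcm2, Mcm3, Mcm10, Cdc45 and Fen1. The share of all tested genes with this order was not counted, so the 5 only describe these genes. Rrm2, which is not among them, was lowest in 3D without palmitate, and its levels in 3D with palmitate and in 2D overlapped.

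Genes that work beside the 35 were taken from 7 lists of 107 genes in all, of which 104 were tested. Between 3D and 2D, 75 of these were called, or 72.1% against 68.3% of all tested genes, a share near that background. Of the 75, 22 were higher and 53 lower, or 21.2% and 51.0% of the tested genes of the lists, against 34.5% and 33.9% of all tested genes. With palmitate 0 were called in edgeR, where 20 had an unadjusted p-value under 0.05, or 19.2% against 17.3% of all tested genes, and DESeq2 on all libraries called 1. Of 32 other genes of origins and forks, 21 were lower in 3D, or 65.6%, and 3 were higher, with a median log2 fold change of -0.39. Recql4, a helicase needed for origin firing, was 2.17-fold higher in 2D, at 37.6 ± 0.343 CPM (SD, n = 3) against 17.3 ± 1.57 CPM (SD, n = 3) in 3D, with a change of -1.12 (SE 0.0866, edgeR adjusted p = 3.99e-08). Mtbp, a partner of treslin in origin firing, changed by -0.79 (SE 0.0611, edgeR adjusted p = 4.21e-08), and Dbf4, the activator of the CDC7 kinase, by -0.73 (SE 0.0708, edgeR adjusted p = 3.89e-07). The 3 genes that rose were Rpa1 (0.45), Pole4 (0.32) and Topbp1 (0.29). Of 12 other genes of deoxynucleotide supply, 5 were lower, or 41.7%, and 1 was higher, Tk2, the mitochondrial thymidine kinase (0.26). Dctpp1, a pyrophosphatase that cleans the nucleotide pool, changed by -1.25 (SE 0.105, edgeR adjusted p = 9.33e-08), Samhd1, which degrades deoxynucleotides, by -0.91 (SE 0.0808, edgeR adjusted p = 1.58e-07), and Dut, which removes dUTP, by -0.69 (SE 0.0593, edgeR adjusted p = 1.16e-07). Among 12 genes of chromatin assembly, 7 were lower, or 58.3%, led by the histone chaperone gene Nasp (-0.90), the FACT subunit gene Ssrp1 (-0.60) and Hells (-0.64), and Atad2 was higher (0.21).

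The remaining lists hold cell cycle control genes and genes of G2 and mitosis, and differences between lists were not tested. Of all tested genes, 34.5% were higher in 3D and 33.9% lower. All 4 tested CDK inhibitors were higher in 3D, and the other 3 had at most 3 counts in any library. Cdkn1a, which encodes the CDK inhibitor p21, had 92.3, 85.2 and 84.5 CPM in 3D cultures with palmitate and 20.5, 18.2 and 18.9 CPM in 2D. That is 4.60-fold higher in 3D, with a change of 2.20 (SE 0.0731, edgeR adjusted p = 4.66e-12), and its level was already high in 3D without palmitate, at 74.4, 70.6 and 76.6 CPM. Cdkn2c, which encodes p18, changed by 0.70 (SE 0.0606, edgeR adjusted p = 1.29e-07) and Cdkn1b, which encodes p27, by 0.28 (SE 0.0576, edgeR adjusted p = 0.000536). Of 8 G1 cyclins, kinases and Cdc25a, 4 were higher and 2 lower. Cdk6, a partner of D cyclins, was 3.19-fold higher in 3D, with a change of 1.67, Ccnd1 had 0.27 and Cdk2 had 0.20. The phosphatase gene Cdc25a (-0.48) and Cdk4 (-0.33) were lower. Of the 16 genes of the E2F, DP and retinoblastoma families, 6 were higher and 6 lower. Each is 37.5%, near the shares of all tested genes. The higher ones were led by Tfdp2 (1.01), E2f6 (0.58) and Rb1 (0.64), and the lower ones by Mybl2 (-0.74), E2f4 (-0.59) and Tfdp1 (-0.38). Of 20 genes of G2 and mitosis, 12 were lower in 3D, or 60.0%, led by Plk1 (-0.63), Birc5 (-0.46) and Ube2c (-0.68), and 3 were higher, Kif11 (0.36), Cenpf (0.41) and Kif20a (0.20). All of these values are log2 fold changes of 3D over 2D with palmitate in both, and all are of genes that passed the edgeR test.

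**Figure D4:**
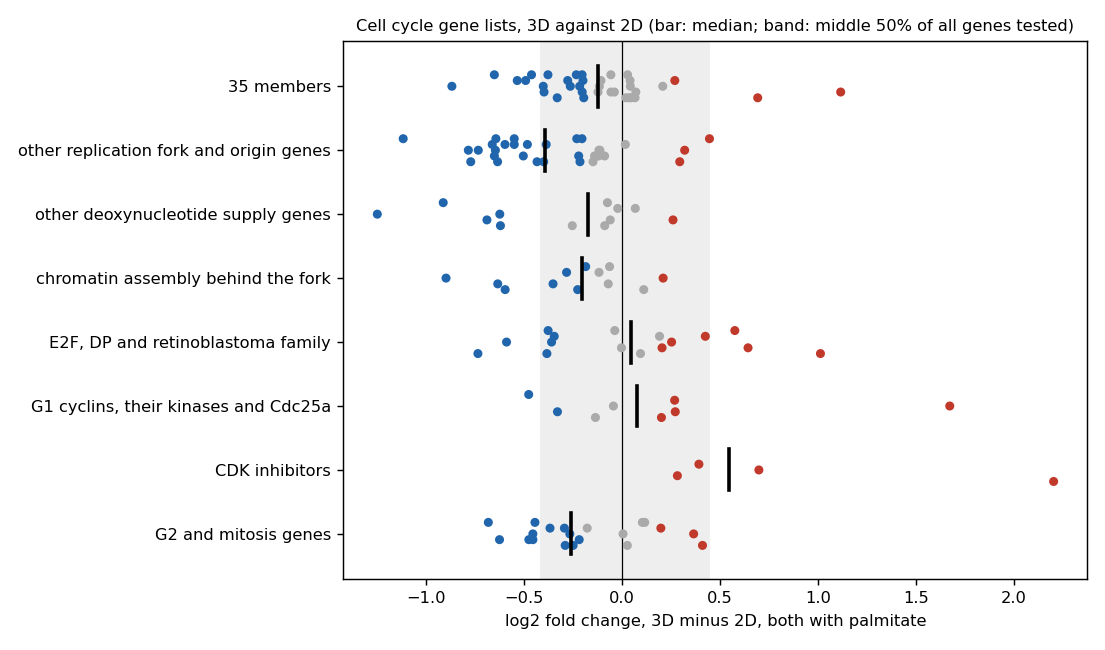
Log2 fold change of 3D over 2D with palmitate in both (x axis) for the 35 genes and 7 lists of cell cycle genes (rows). Each point is a gene (blue lower, red higher, grey not called), the black bar is the median of the list and the grey band is the interquartile range of all tested genes. The medians run from -0.39 in the other replication genes to 0.54 in the CDK inhibitors.

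In 13 of the 35 genes, an exon overlaps an exon of another gene on the opposite strand, and in Mcm7 also those of Mir25 and Mir93 on its own strand. The libraries were made with a stranded kit, but the strand setting of the counting is not given in the sources used here. The longest overlaps are in Gins2, Fen1, Rfc2 (952 bases with Lat2), Ccne2 and Rfc5 (499 bases with Wsb2). For these genes, counts could have been split or lost. Gm10143, the partner in the long overlap of Fen1, was not in the deposited table. Whether the annotation used for counting held Gm10143 is not given. Pcna and Tyms have annotated pseudogenes, of which 1 was in the table with at most 10 counts.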

How the data were processed

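RNA was extracted from 4T1 cells and libraries were made with a stranded poly(A) kit and sequenced as single-end reads. Per the labels and the study's methods, the authors checked the reads with FastQC 0.11.9, cleaned them with fastq-mcf, mapped them to GRCm38 with HISAT2 2.1.0 and counted reads per gene with HTSeq. They deposited raw counts, 1 column for each of the 9 libraries. The annotation release and the strand setting are not given in the sources used here. Libraries were assigned to conditions by their labels. Their totals, from 6595514 to 31177756 counts, set the counting error.

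The counts went into edgeR 4.0.16 under R 4.3.3. After filtering by filterByExpr and TMM scaling, 1 quasi-likelihood fit with a term for condition covered all 9 libraries. A gene was called at an adjusted p-value (Benjamini and Hochberg) under 0.05. Its standard error (SE) was obtained from the log2 fold change and the square root of F, and the 95% intervals use the t distribution with the degrees of freedom of that test. Gene models are from GENCODE M21, of which 12125 tested genes had GC content and length, and promoters are from RefSeq. The 35 genes and all lists were chosen with earlier results of these data known. All 35 genes are named, and of each other list the 3 called genes with the smallest p in each direction. Alternatives were RLE scaling, library size only, the replicate number as a block, no filter, a minimum of 10 counts in each library, a fit of only the 2 groups compared, DESeq2 1.42.0, an absolute log2 fold change of at least 0.5, the share of Rn45s as a covariate, each library left out in turn and, added after seeing the data, correction of every library for GC content and length by natural splines with 4 degrees of freedom. On counts simulated for 12438 genes in the comparison of 3D with 2D, edgeR recovered 178 of 200 changed genes with 13 false calls. For palmitate, with 12419 genes, it recovered 179 of 200 with 16 false calls. The 200 changed genes are far fewer than the 8594 called between 3D and 2D in the data, so the simulation does not show how the calls perform there. No libraries of a condition were identical, with chi-square values per gene between 3.89 and 19.7. The other samples of the study were not analysed here.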

Additional observations from a re-analysis of the deposited data

How the results depend on the processing

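Between 3D and 2D, 17 to 25 of the 35 genes were called under every alternative with the threshold on adjusted p alone. Of all tested genes, 7708 to 8897 were called under these alternatives. With 1 library left out, the numbers were 19 to 21 of the 35 genes and 7977 to 8866 of all tested genes. With a log2 fold change of at least 0.5, 5 of the 35 genes were called. All called genes then fell from 8594 to 5113 of the 12575 tested, and those of the other lists from 75 to 31 of 104. The call on Gins2 was lost with the 2 groups alone, with DESeq2 on the 2 groups and with Rn45s in the fit, and DESeq2 on the 2 groups also lost Rfc5 and Prim1. For palmitate, the 1 called gene became 2 with DESeq2 on all libraries (Mcm5 was added), 0 with a log2 fold change of at least 0.5, 0 with Rn45s in the fit, 5 after correction for GC content and length, and 0 to 8 with 1 library left out. All genes called for palmitate, 275, became 617 without a filter, 77 with the 2 groups alone, 182 with DESeq2 on the 2 groups, 111 with the replicate block, 119 with a log2 fold change of at least 0.5, 44 with Rn45s in the fit, 914 after correction for GC content and length, and 71 to 1901 with 1 library left out. Those of the other lists, 0, became 1 without a filter, 1 with DESeq2 on all libraries, 7 after correction for GC content and length, and 0 to 23 with 1 library left out, 23 being without replicate 3 of the 3D cultures with palmitate. The cause was not tested. The medians over the 35 genes kept their sign, from -0.16 to -0.11 for 3D against 2D and from 0.08 to 0.12 for palmitate with 1 library left out. With the replicate block, 20 and 1 of the 35 genes were called, as without it. Same-numbered libraries had correlations of -0.238 to 0.145 in their deviations from the group means and differently numbered ones -0.173 to 0.28. These correlations gave no sign that the numbers pair the libraries, but with 3 libraries in a condition they cannot exclude it.

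Changes of sign were found in genes that had not been called. For 3D against 2D they were, without a filter, Gins4 (-0.0083) and Uhrf1 (-3e-04), and after the correction for GC content and length, which moved the median of all genes from 0.01 to -0.08, Mcm6 (-0.0354), Cdc6 (-0.0801), Pcna (0.0353), Pola1 (-0.0724, from 0.21), Rrm1 (-0.25, from 0.07, the only one called after it), Rrm2 (0.0163) and Uhrf1 (-0.0282). For palmitate they were Orc6 with library size only (-0.0017), Ccne2 with DESeq2 on the 2 groups (0.0343) and on all libraries (0.0371), with the replicate block (5e-04) and after correction for GC content and length (0.0559), Rfc3 (-0.0035), Rfc5 (-0.0042) and Lig1 (0.0270) with Rn45s in the fit, and Orc6 (-0.0097), Gins4 (-0.0161) and E2f1 (-0.0286) after correction for GC content and length. With 1 library left out, 3D against 2D ran from -0.17 to 0.0889 in Gins3, -0.0397 to 0.0857 in Gins4, -0.0047 to 0.12 in Rrm1, -0.0735 to 0.1006 in E2f1 and -0.0072 to 0.0429 in Uhrf1. Palmitate ran from -0.0149 to 0.0638 in Mcm7, -0.0466 to 0.0933 in Orc6, -0.0573 to 0.1853 in Gins2, -0.1842 to 0.0778 in Gins3, -0.0138 to 0.12 in Gins4, -0.0795 to 0.021 in Lig1, -0.16 to 0.28 in Ccne2 and -0.083 to 0.0913 in E2f1.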
